A study of Mus musculus with 15 samples.

Results

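The genes described here are the enzymes that oxidise or conjugate drugs and other foreign compounds, and the pumps that export them, in the colon of mice with colitis-associated neoplasia. They were chosen by array gene name: cytochrome P450 families Cyp1 to Cyp4, sulfotransferases (Sult), UDP-glucuronosyltransferases (Ugt1, Ugt2), the alpha, mu, pi, theta, omega, kappa and zeta glutathione transferases (Gst), the arylamine N-acetyltransferases Nat1 and Nat2, and the Abcb, Abcc and Abcg transporters. By name 122 genes (181 probes) matched, and 101 genes (132 probes) also met the second condition, that all arrays of 1 group or more gave a sample signal the scanner software called well above background. They stand among 21300 genes and 30163 probes that met the same condition, of 41174 probes on the array. One further pump gene with a matching name is not analysed here.

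All mice were female Swiss Webster animals, and every group, controls included, had received azoxymethane (AOM, a colon carcinogen) at 7.4 mg/kg by intraperitoneal injection and 3 cycles of 4% dextran sulfate sodium (DSS, which injures the colon lining), each with 7 days of DSS and 21 days of water. They were 7 weeks old at the start, 9 weeks at the first DSS and 18 weeks at sacrifice. The 4 groups of 2 mice were 5-ASA polypoid, untreated polypoid, 5-ASA inflamed and untreated inflamed: polypoid or inflamed areas were laser-captured from frozen colon of mice given either the anti-inflammatory drug 5-ASA (5-aminosalicylic acid) at 75 mg/kg or vehicle, and each mouse gave tissue to 1 group. No group of mice free of AOM and DSS was compared. The RNA was amplified over 2 rounds and hybridised on 15 dual-colour arrays beside mouse universal reference RNA. A dye-swapped second array was made for 7 mice, and 5-ASA inflamed mouse 2 had 1 array, on which 57.4% of spots were well above background, the lowest share of the 15 arrays (highest 90.9%).

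Drug metabolism runs in steps. Cytochromes add oxygen to a compound, sulfotransferases, glucuronosyltransferases, glutathione transferases and acetyltransferases attach a polar group to it, and ABC pumps move the compound or its conjugate across the cell membrane. In the gut lining many of these genes are known from absorptive epithelial cells, and 5-ASA itself is inactivated in the colon wall by N-acetylation, for which human NAT1, and mouse Nat2 as its counterpart, are known.

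Of the 101 genes, 80 were well above background on all 15 arrays, and detection in the 4 groups was alike: 94 genes in 5-ASA polypoid, 88 in untreated polypoid, 91 in 5-ASA inflamed and 95 in untreated inflamed tissue met the condition on every array of the group. Genes that met it through 1 group alone were Sult1e1 (5-ASA polypoid), Cyp1a1 (5-ASA inflamed), and Cyp3a11 and Cyp4b1 (untreated inflamed). Just inside the condition, Cyp1a1 was well above background on 5 of 15 arrays. Just outside it, the best probe of Abcg3, Cyp1a2 and Ugt1a1 was so on 10 arrays. The other 18 genes matched by name but not tested were Abcb5, Abcc6, Abcc10, Abcc12, Cyp2a5, Cyp2a12, Cyp2c38, Cyp2c54, Cyp2e1, Cyp2j5, Cyp3a25, Cyp4f15, Sult2a2, Ugt1a9, Ugt2a3, Ugt2b1, Ugt2b5 and Ugt2b38. Every value below is the log2 of sample over reference for 1 gene in 1 mouse, so it can be compared between mice and not between genes.

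The first comparison asked how drug-handling genes in polyps differed from those in inflamed mucosa, over both treatment arms (4 polypoid and 4 inflamed mice). Most of the genes that differed were lower in polypoid tissue: 22 fell and 4 rose (limma, Benjamini-Hochberg adjusted p under 0.05 over 21300 genes). Those that fell were 13 cytochromes, the sulfotransferases Sult1a1 and Sult1d1, the glucuronosyltransferase Ugt1a6b, the glutathione transferases Gstm1, Gstm2, Gstm3 and Gstt3, and the transporters Abcb1b and Abcb4. Those that rose were the pumps Abcc2 and Abcc5 and the glutathione transferases Gsta4 and Gstm5. Over all genes tested 5.93% passed, 1.97% lower and 3.97% higher. The median log2 difference was -0.27 over the 101 genes and -0.02 over all genes, and 77 of the 101 differences were negative. The 4 polypoid and 4 inflamed mice did not overlap for 28 genes that lay lower and 9 that lay higher, where the shares over all genes were 7.91% and 8.37%. Of the 26 genes that passed, 21 had no overlap. Among the 26, Cyp3a44 met the detection condition only through inflamed groups and Abcc2 only through polypoid groups, the side where each was higher. An unadjusted p under 0.05 was found for 51 members, against 23.2% of all genes.

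**Figure D1:**
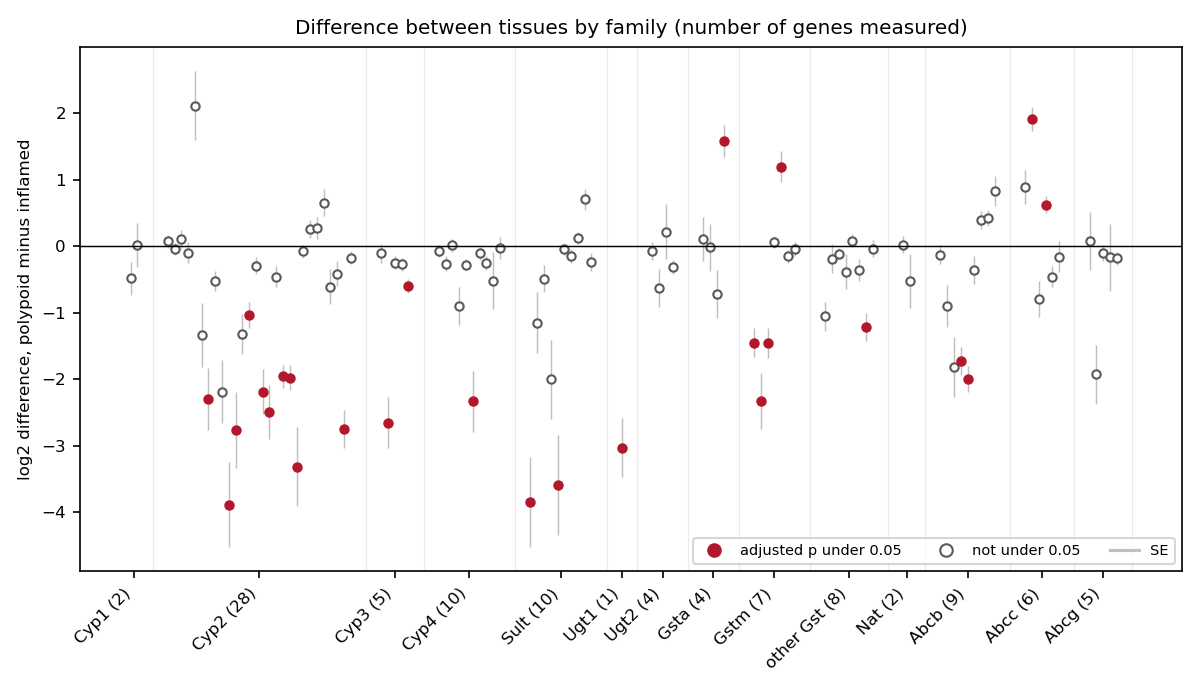
Log2 difference between the mean of 4 polypoid and the mean of 4 inflamed mice (vertical axis) for each of the 101 genes, grouped by family with the number of genes in brackets. Filled points passed at an adjusted p under 0.05 and grey lines are standard errors; the 22 genes that fell include 13 cytochromes, and the 4 that rose are Gsta4, Gstm5, Abcc2 and Abcc5.

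Among the cytochromes, the oxidising enzymes, 13 of 45 fell and none rose (1.97% and 3.97% of all genes). Those that fell were 10 of 28 in family Cyp2, 2 of 5 in Cyp3, 1 of 10 in Cyp4 and 0 of 2 in Cyp1. The widest difference was that of Cyp2c40, which hydroxylates arachidonic acid in the mouse gut. Its values were -0.44 and -0.81 in 5-ASA polypoid mice, 2.95 and -0.02 in untreated polypoid mice, 4.59 and 4.00 in 5-ASA inflamed mice and 4.67 and 3.96 in untreated inflamed mice. Untreated polypoid mouse 1 lay far above the other mouse of its group and still under every inflamed mouse. Cyp2c40 fell 14.8-fold (-3.89 ± 0.64 SE, adjusted p = 0.0264). Its second detected probe gave -1.68 and did not pass. The related Cyp2c55, which acts on arachidonic and linoleic acid, had -0.84 and -0.65 in 5-ASA polypoid mice, 2.38 and -0.27 in untreated polypoid mice, 4.04 and 3.18 in 5-ASA inflamed mice and 2.08 and 2.38 in untreated inflamed mice. The groups overlapped, because untreated polypoid mouse 1 exceeded untreated inflamed mouse 1 and matched untreated inflamed mouse 2, and the gene fell 6.8-fold (-2.77 ± 0.57 SE, adjusted p = 0.0476).

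Cyp2c29, an arachidonic acid epoxygenase, had -0.43 and -0.48 in 5-ASA polypoid mice, 1.59 and -0.11 in untreated polypoid mice, 3.01 and 2.26 in 5-ASA inflamed mice and 2.90 and 1.60 in untreated inflamed mice. It fell 4.93-fold (-2.30 ± 0.47 SE, adjusted p = 0.0448), with untreated polypoid mouse 1 and untreated inflamed mouse 2 almost level. For Cyp2c66 the values were -0.13 and 0.13 in 5-ASA polypoid mice, 0.86 and 0.14 in untreated polypoid mice, 1.46 and 1.55 in 5-ASA inflamed mice and 0.86 and 1.27 in untreated inflamed mice. It fell 2.04-fold (-1.03 ± 0.19 SE, adjusted p = 0.0368), the smallest difference of the called Cyp2c genes, and untreated polypoid mouse 1 and untreated inflamed mouse 1 were equal to 2 decimals. Cyp2c29, Cyp2c55 and Cyp2c66 lie in a row with Cyp2c39 and Cyp2c65 in the RefSeq gene order (GRCm38.p6). The log2 differences of those neighbours were -2.18 ± 0.47 SE, adjusted p = 0.0525 for Cyp2c39 and -1.32 ± 0.30 SE, adjusted p = 0.0598 for Cyp2c65. Genes of the Cyp2c, Cyp2d, Cyp3a, Ugt1a and Gstm groups are close copies of each other, and whether a probe also bound a neighbour's RNA was not tested.

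The Cyp2d enzymes, mouse relatives of the human drug oxidiser CYP2D6, fell in 4 of 5 measured genes. Cyp2d26 had 0.60 and 0.76 in 5-ASA polypoid mice, 1.29 and 0.76 in untreated polypoid mice, 3.03 and 2.54 in 5-ASA inflamed mice and 2.96 and 2.71 in untreated inflamed mice. All polypoid mice lay below all inflamed mice, and the gene fell 3.88-fold (-1.96 ± 0.18 SE, adjusted p = 0.00664). Cyp2d9, a steroid hydroxylase in mouse liver, had 0.79 and 0.51 in 5-ASA polypoid mice, 1.90 and 1.15 in untreated polypoid mice, 3.45 and 3.29 in 5-ASA inflamed mice and 2.74 and 2.77 in untreated inflamed mice. It fell 3.93-fold (-1.97 ± 0.18 SE, adjusted p = 0.00723) without overlap, and both of its probes passed. Cyp2d10 had 0.70 and 0.67 in 5-ASA polypoid mice, 2.58 and 0.99 in untreated polypoid mice, 3.56 and 3.25 in 5-ASA inflamed mice and 3.46 and 3.42 in untreated inflamed mice. It fell 4.56-fold (-2.19 ± 0.34 SE, adjusted p = 0.0226), with untreated polypoid mouse 1 apart from the other polypoid mice, and 1 of its 2 probes passed. Cyp2d13 had 0.23 and 0.15 in 5-ASA polypoid mice, 1.98 and 0.42 in untreated polypoid mice, 3.65 and 2.48 in 5-ASA inflamed mice and 3.23 and 3.38 in untreated inflamed mice. It fell 5.62-fold (-2.49 ± 0.40 SE, adjusted p = 0.0254) in the same pattern. The fifth gene, Cyp2d22, did not pass by its brightest probe (-0.46 ± 0.16 SE, adjusted p = 0.15), while its other detected probe did (-0.60, adjusted p = 0.0459 over all detected probes).

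Cyp2s1, a cytochrome of epithelia outside the liver that is known to be induced through the dioxin receptor, had -0.17 and -1.27 in 5-ASA polypoid mice, -0.31 and -0.13 in untreated polypoid mice, 2.61 and 2.33 in 5-ASA inflamed mice and 2.45 and 1.70 in untreated inflamed mice. Untreated polypoid mouse 1 did not stand apart here, every polypoid mouse was below every inflamed mouse, and Cyp2s1 fell 6.7-fold (-2.74 ± 0.29 SE, adjusted p = 0.00991). Cyp2f2, known for oxidising naphthalene in mouse airways, had -0.21 and 0.00 in 5-ASA polypoid mice, 3.57 and 1.103 in untreated polypoid mice, 3.26 and 4.39 in 5-ASA inflamed mice and 5.56 and 4.51 in untreated inflamed mice. It fell 9.96-fold (-3.32 ± 0.59 SE, adjusted p = 0.0333), but untreated polypoid mouse 1 exceeded 5-ASA inflamed mouse 1. It was not well above background on any of the 4 arrays of 5-ASA polypoid tissue, so its values in those mice, and the differences that use them, rest on signals at the limit of detection.

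In family Cyp3, Cyp3a13, a main Cyp3a form of the mouse intestine, had -1.52 and -1.53 in 5-ASA polypoid mice, 0.09 and -1.70 in untreated polypoid mice, 1.96 and 1.73 in 5-ASA inflamed mice and 1.33 and 0.92 in untreated inflamed mice. It fell 6.28-fold (-2.65 ± 0.38 SE, adjusted p = 0.019) without overlap. Cyp3a44, best known from female mouse liver, had -0.26 and -0.29 in 5-ASA polypoid mice, 0.17 and -0.11 in untreated polypoid mice, 0.76 and 0.70 in 5-ASA inflamed mice and 0.14 and 0.30 in untreated inflamed mice. Its drop was small (-0.59 ± 0.10 SE, adjusted p = 0.032), and the untreated mice of both tissues overlapped. The Cyp3a44 probe was well above background on 3 of 4 arrays of each polypoid group and on all inflamed arrays. Cyp3a44 thus met the detection condition only through the tissue where it was higher. Cyp3a11, Cyp3a16 and Cyp3a41a had differences of -0.11 ± 0.14 SE, -0.25 ± 0.10 SE and -0.27 ± 0.10 SE and did not pass. In family Cyp4, Cyp4f14, which hydroxylates leukotriene B4, had 0.22 and 0.19 in 5-ASA polypoid mice, 2.45 and 0.45 in untreated polypoid mice, 3.24 and 2.33 in 5-ASA inflamed mice and 3.72 and 3.34 in untreated inflamed mice. It fell 5.02-fold (-2.33 ± 0.46 SE, adjusted p = 0.0413), and untreated polypoid mouse 1 exceeded 5-ASA inflamed mouse 2. The largest positive difference of a cytochrome was that of Cyp2b9, 2.12 ± 0.52 SE, adjusted p = 0.0735, named after its value was seen. Its second probe gave 0.04. Cyp1a1, the classical target of the dioxin receptor, was well above background on 0 of 4 arrays of 5-ASA polypoid and 1 of 4 of untreated polypoid tissue, and its fitted difference of -0.48 ± 0.25 SE, adjusted p = 0.31 rests on signals at the limit of detection.

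**Figure D2:**
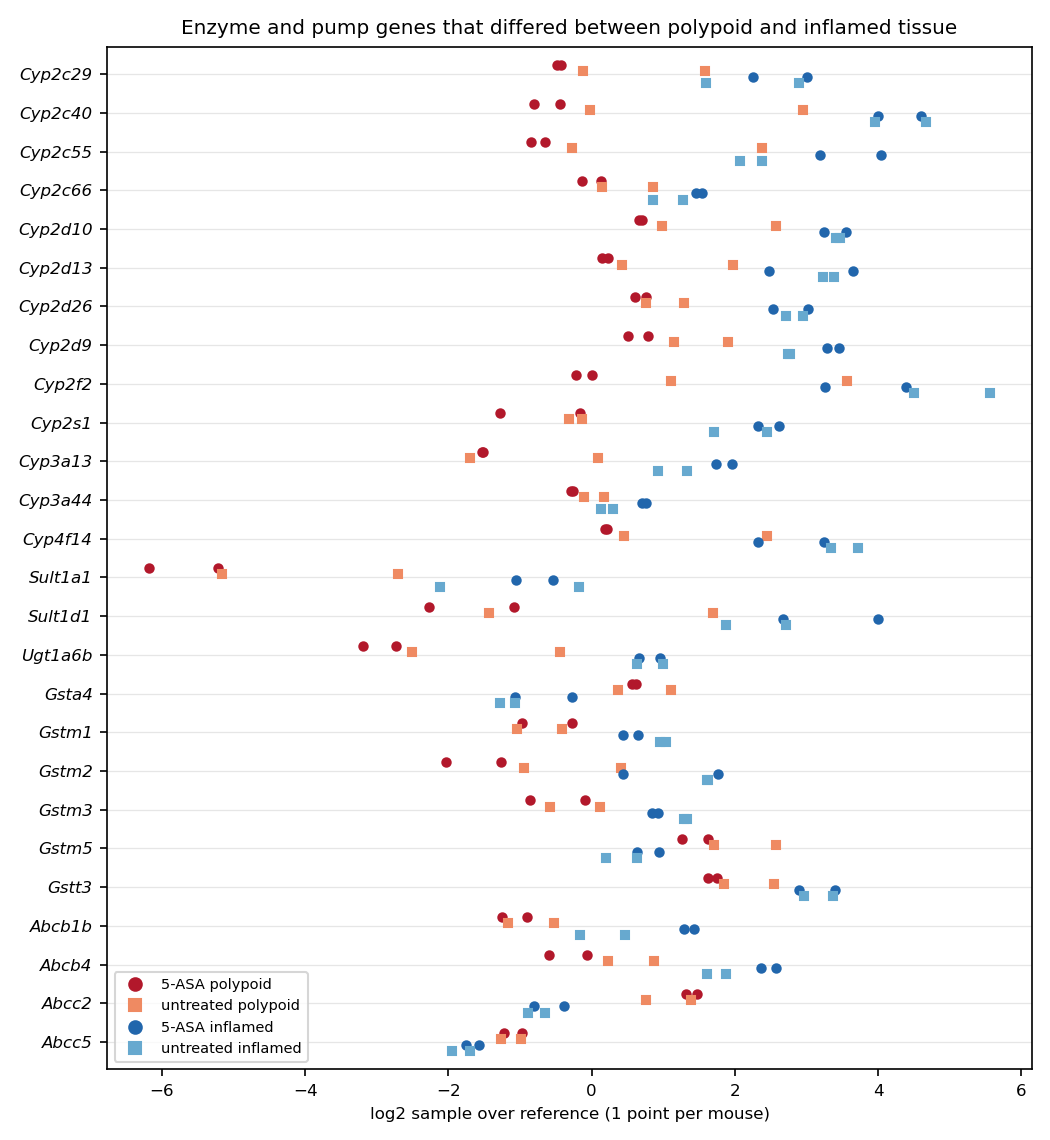
Log2 of sample over reference (horizontal axis) in each of the 8 mice for the 26 genes that passed, 1 row per gene and 2 points per group, from Cyp2 at the top to Abcc at the bottom. In 20 of the 22 rows that fell, untreated polypoid mouse 1 (an orange square) lies highest of the 4 polypoid mice, while the 4 genes that rose (Gsta4, Gstm5, Abcc2, Abcc5) show no overlap between tissues.

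Of the sulfate-transferring enzymes 2 of 10 fell, as did 1.97% of all genes. Sult1a1, the main phenol sulfotransferase, had -6.18 and -5.21 in 5-ASA polypoid mice, -2.70 and -5.17 in untreated polypoid mice, -0.54 and -1.06 in 5-ASA inflamed mice and -0.17 and -2.12 in untreated inflamed mice. It fell 14.3-fold (-3.84 ± 0.68 SE, adjusted p = 0.0321); the polypoid mice differed widely among themselves and stayed below all inflamed mice. Sult1d1, which sulfates catecholamines in the mouse, had -1.09 and -2.26 in 5-ASA polypoid mice, 1.70 and -1.43 in untreated polypoid mice, 3.99 and 2.67 in 5-ASA inflamed mice and 2.72 and 1.88 in untreated inflamed mice. It fell 12-fold (-3.58 ± 0.75 SE, adjusted p = 0.049), again without overlap. Sult1b1 and Sult1c2 also lay lower on average (-1.15 ± 0.46 SE, adjusted p = 0.203 and -2.001 ± 0.59 SE, adjusted p = 0.107) and did not pass. The single measured Ugt1 gene was Ugt1a6b, which glucuronidates phenols. Its values were -3.19 and -2.73 in 5-ASA polypoid mice, -0.45 and -2.50 in untreated polypoid mice, 0.96 and 0.66 in 5-ASA inflamed mice and 0.64 and 0.99 in untreated inflamed mice. It fell 8.17-fold (-3.03 ± 0.44 SE, adjusted p = 0.0201) without overlap, and saturation on 2 inflamed arrays makes that fold an underestimate. None of 4 Ugt2 genes passed, and the smallest p among them was that of Ugt2b37 (-0.31 ± 0.11 SE, adjusted p = 0.166), with 0.15 and 0.17 in 5-ASA polypoid mice, 0.24 and -0.13 in untreated polypoid mice, 0.54 and 0.46 in 5-ASA inflamed mice and 0.37 and 0.31 in untreated inflamed mice.

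The glutathione transferases split: 4 of 19 fell and 2 rose (1.97% and 3.97% of all genes). Among the mu class, Gstm1 had -0.98 and -0.27 in 5-ASA polypoid mice, -0.41 and -1.04 in untreated polypoid mice, 0.65 and 0.44 in 5-ASA inflamed mice and 0.96 and 1.04 in untreated inflamed mice. It fell 2.73-fold (-1.45 ± 0.21 SE, adjusted p = 0.0202) without overlap, although its second probe gave -0.22 and did not pass. Gstm2 had -1.27 and -2.04 in 5-ASA polypoid mice, 0.41 and -0.94 in untreated polypoid mice, 1.77 and 0.44 in 5-ASA inflamed mice and 1.62 and 1.61 in untreated inflamed mice. It fell 5-fold (-2.32 ± 0.42 SE, adjusted p = 0.0343), and untreated polypoid mouse 1 was almost level with 5-ASA inflamed mouse 2. Gstm3 had -0.86 and -0.09 in 5-ASA polypoid mice, 0.11 and -0.58 in untreated polypoid mice, 0.84 and 0.93 in 5-ASA inflamed mice and 1.34 and 1.29 in untreated inflamed mice. It fell 2.74-fold (-1.45 ± 0.23 SE, adjusted p = 0.023). Gstm5 went the other way, with 1.63 and 1.27 in 5-ASA polypoid mice, 1.71 and 2.58 in untreated polypoid mice, 0.63 and 0.94 in 5-ASA inflamed mice and 0.63 and 0.21 in untreated inflamed mice. All polypoid mice exceeded all inflamed mice, and it rose 2.29-fold (1.20 ± 0.23 SE, adjusted p = 0.0401). All 7 mu-class genes lie in one cluster, which thus held genes of both directions. Gstm4, Gstm6 and Gstm7 had differences of 0.06 ± 0.09 SE, -0.15 ± 0.09 SE and -0.04 ± 0.11 SE, and the second probe of Gstm7 gave 0.41.

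Gsta4, which conjugates the lipid peroxidation product 4-hydroxynonenal, had 0.57 and 0.62 in 5-ASA polypoid mice, 0.37 and 1.11 in untreated polypoid mice, -1.07 and -0.27 in 5-ASA inflamed mice and -1.07 and -1.28 in untreated inflamed mice. It was the alpha-class gene that passed, 3.01-fold higher (1.59 ± 0.24 SE, adjusted p = 0.021) and without overlap. Gsta1 and Gsta2 differed by 0.11 ± 0.33 SE and -0.02 ± 0.36 SE, and Gsta3 by -0.71 ± 0.36 SE, and none of them passed. The theta-class gene Gstt3 had 1.63 and 1.75 in 5-ASA polypoid mice, 2.55 and 1.85 in untreated polypoid mice, 3.40 and 2.89 in 5-ASA inflamed mice and 3.37 and 2.96 in untreated inflamed mice. It fell 2.32-fold (-1.21 ± 0.21 SE, adjusted p = 0.0311). The kappa-class Gstk1, a mitochondrial and peroxisomal enzyme, was just short of the threshold (-1.05 ± 0.22 SE, adjusted p = 0.051), and the pi-class Gstp1 differed by -0.38 ± 0.26 SE, adjusted p = 0.448. The Gstp1 probe was saturated on 1 untreated polypoid and 2 untreated inflamed arrays, and its second, unsaturated probe gave -0.10.

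Neither acetyltransferase passed. Nat2 had 0.88 and 0.53 in 5-ASA polypoid mice, 1.02 and -0.33 in untreated polypoid mice, 1.75 and 0.89 in 5-ASA inflamed mice and 1.35 and 0.21 in untreated inflamed mice, and Nat1 had -0.65 and -0.66 in 5-ASA polypoid mice, -0.29 and -0.78 in untreated polypoid mice, -0.77 and -0.63 in 5-ASA inflamed mice and -0.59 and -0.50 in untreated inflamed mice. The tissues overlapped in both genes, with -0.52 ± 0.41 SE, adjusted p = 0.507 for Nat2 and 0.03 ± 0.13 SE, adjusted p = 0.931 for Nat1.

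Of 20 transporters 2 fell and 2 rose, and 13 had an unadjusted p under 0.05. Over all genes the shares were 1.97%, 3.97% and 23.2%. Abcb1a and Abcb1b are the mouse P-glycoproteins, which export many lipophilic drugs, and Abcb4 next to them flips phosphatidylcholine into bile. Abcb1b had -0.90 and -1.26 in 5-ASA polypoid mice, -0.52 and -1.16 in untreated polypoid mice, 1.43 and 1.30 in 5-ASA inflamed mice and -0.16 and 0.47 in untreated inflamed mice. It fell 3.29-fold (-1.72 ± 0.21 SE, adjusted p = 0.0136), and by this probe all polypoid mice lay below all inflamed mice. Its second detected probe also passed, with a smaller difference of -0.87. By that second probe untreated polypoid mouse 1 (0.23) lay above untreated inflamed mouse 2 (0.17). Abcb4 had -0.07 and -0.59 in 5-ASA polypoid mice, 0.88 and 0.23 in untreated polypoid mice, 2.58 and 2.37 in 5-ASA inflamed mice and 1.88 and 1.61 in untreated inflamed mice. It fell 3.99-fold (-1.996 ± 0.20 SE, adjusted p = 0.00871) without overlap. Abcb1a had 0.54 and 0.52 in 5-ASA polypoid mice, 1.95 and 0.10 in untreated polypoid mice, 3.75 and 3.32 in 5-ASA inflamed mice and 2.20 and 1.11 in untreated inflamed mice. Untreated polypoid mouse 1 exceeded untreated inflamed mouse 2, and the difference did not pass (-1.82 ± 0.45 SE, adjusted p = 0.0735).

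Abcc2, the apical pump for glutathione, glucuronide and sulfate conjugates, had 1.47 and 1.31 in 5-ASA polypoid mice, 1.38 and 0.77 in untreated polypoid mice, -0.80 and -0.39 in 5-ASA inflamed mice and -0.89 and -0.65 in untreated inflamed mice. All 4 polypoid mice were above the reference and all 4 inflamed mice below it, and Abcc2 rose 3.77-fold (1.92 ± 0.18 SE, adjusted p = 0.00739). It was well above background on 2 of 3 arrays of 5-ASA inflamed and 3 of 4 of untreated inflamed tissue, and on all polypoid arrays. Abcc2 thus met the detection condition only through the tissue where it was higher. Abcc5, an exporter of cyclic nucleotides and organic anions, had -1.23 and -0.98 in 5-ASA polypoid mice, -1.26 and -0.99 in untreated polypoid mice, -1.75 and -1.57 in 5-ASA inflamed mice and -1.70 and -1.95 in untreated inflamed mice. It rose 1.54-fold (0.63 ± 0.13 SE, adjusted p = 0.0448), the least of the genes that rose, and 2 of its 3 probes passed. Abcc1, a broad conjugate exporter, had a main probe that did not pass (0.89 ± 0.26 SE, adjusted p = 0.102) beside other probes that did, 2 of 3 probes in all.

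Abcc3, the conjugate exporter of the basal cell side, had -0.06 and -0.21 in 5-ASA polypoid mice, -0.01 and 0.73 in untreated polypoid mice, 1.07 and 0.68 in 5-ASA inflamed mice and 0.44 and 1.41 in untreated inflamed mice. It did not pass (-0.79 ± 0.27 SE, adjusted p = 0.154), and its second detected probe gave -0.06. Abcg2, the breast cancer resistance protein of the apical membrane, had -1.36 and -1.44 in 5-ASA polypoid mice, -0.31 and -2.25 in untreated polypoid mice, 1.44 and 0.66 in 5-ASA inflamed mice and 0.35 and -0.11 in untreated inflamed mice. By its brightest probe every inflamed mouse was above every polypoid mouse, and the difference did not reach the threshold (-1.93 ± 0.44 SE, adjusted p = 0.0601). The second detected probe of Abcg2 gave -0.96 and did not pass. By that probe untreated polypoid mouse 1 (-0.42) lay above untreated inflamed mouse 2 (-0.48). No Abcg gene passed, and the sterol pumps Abcg5 and Abcg8 differed by -0.17 ± 0.51 SE and -0.18 ± 0.10 SE.

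**Figure D3:**
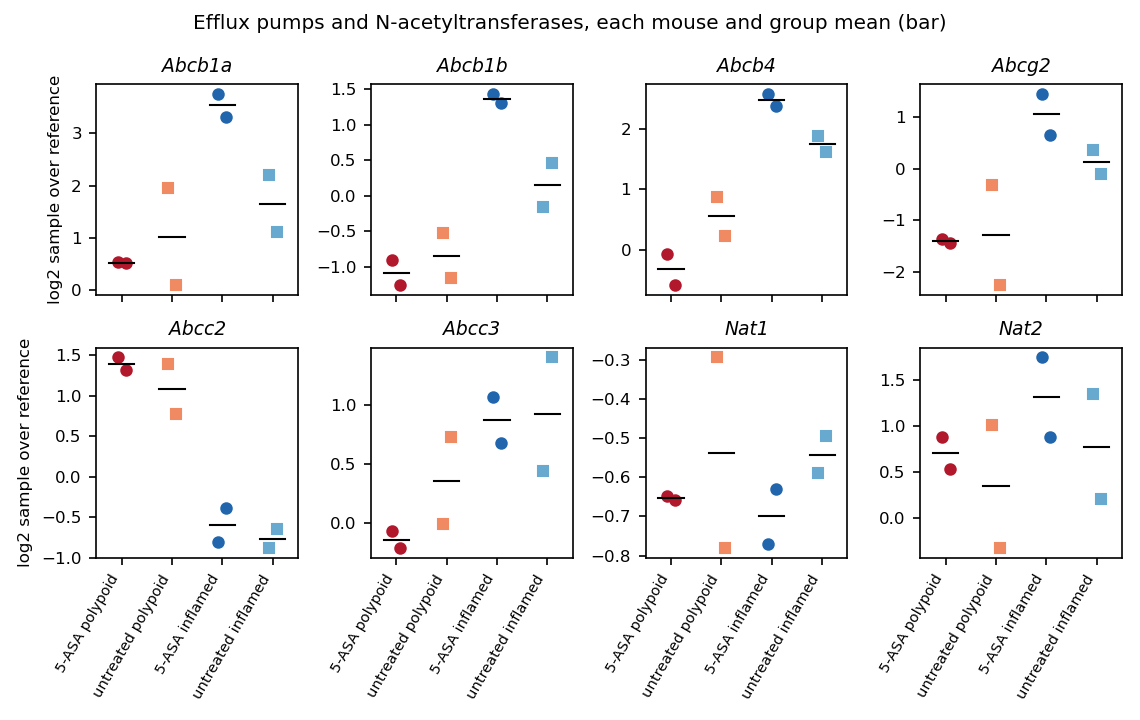
Log2 of sample over reference (vertical axis, own scale in each panel) for 6 transporters and both N-acetyltransferases; each point is 1 mouse and each bar the mean of the 2 mice of a group, in the order 5-ASA polypoid, untreated polypoid, 5-ASA inflamed, untreated inflamed. Abcb1b and Abcb4 are lower and Abcc2 is higher in all 4 polypoid mice than in all 4 inflamed mice, while Nat1 and Nat2 overlap.

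Promoters were compared because several genes moved together. RefSeq promoters (GRCm38.p6, 250 bases before to 50 after the start) were found for 79 of the 101 genes and 23 of the 26 that passed, and both strands were searched for 6 short motifs. The core of the antioxidant response element, TGACNNNGC, was in the promoters of Abcc2 and Gstm5, 2 of the 3 with a promoter among those that rose, in 1 of 20 that fell (Cyp2c66), and in 12.5% of all 27018 promoters. The motif GTTAAT of the hepatocyte factor HNF1 was in 4 of the 20 promoters of genes that fell (Cyp2c40, Cyp2d26, Sult1a1 and Sult1d1), in none of the 3 that rose, and in 7.2% of all. The core of the dioxin receptor element, GCGTG, was in 4 of 20, 1 of 3 and 32.5%, in that order. The repeat unit of nuclear receptor sites, AGGTCA, was in 3 of 20, 1 of 3 and 16%. The TCF/LEF core CTTTGAT was in 1 of 20, none of 3 and 3.72%, and the CDX core TTTATG in 2 of 20, 1 of 3 and 12.2%. The promoters that hold the first 2 motifs are printed 5′ to 3′ on the gene's strand, with matches to any of the 6 motifs in capitals. They were chosen after the values were seen, and a match is a stretch of letters, not a shown binding site.
Abcc2, chr19:43782058-43782357, plus strand: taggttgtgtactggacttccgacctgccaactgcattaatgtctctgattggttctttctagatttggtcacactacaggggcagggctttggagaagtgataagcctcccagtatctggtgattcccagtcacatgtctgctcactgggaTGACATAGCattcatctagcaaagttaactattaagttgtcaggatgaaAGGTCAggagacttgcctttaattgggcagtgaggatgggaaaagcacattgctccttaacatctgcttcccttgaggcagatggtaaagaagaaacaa
Gstm5, chr3:107895604-107895903, plus strand: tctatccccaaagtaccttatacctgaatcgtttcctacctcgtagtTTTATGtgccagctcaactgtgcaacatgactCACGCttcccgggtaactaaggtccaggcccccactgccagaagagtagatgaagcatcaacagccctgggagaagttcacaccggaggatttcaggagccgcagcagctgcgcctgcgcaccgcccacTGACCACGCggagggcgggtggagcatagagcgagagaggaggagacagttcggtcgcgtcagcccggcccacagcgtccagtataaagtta
Cyp2c66, chr19:39113648-39113947, plus strand: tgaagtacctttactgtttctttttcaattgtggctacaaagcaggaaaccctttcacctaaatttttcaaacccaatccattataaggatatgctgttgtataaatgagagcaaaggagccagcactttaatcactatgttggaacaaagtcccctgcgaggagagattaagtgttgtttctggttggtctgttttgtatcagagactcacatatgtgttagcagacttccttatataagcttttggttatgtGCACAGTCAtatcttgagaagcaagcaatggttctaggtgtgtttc
Cyp2c40, chr19:39812765-39813064, minus strand: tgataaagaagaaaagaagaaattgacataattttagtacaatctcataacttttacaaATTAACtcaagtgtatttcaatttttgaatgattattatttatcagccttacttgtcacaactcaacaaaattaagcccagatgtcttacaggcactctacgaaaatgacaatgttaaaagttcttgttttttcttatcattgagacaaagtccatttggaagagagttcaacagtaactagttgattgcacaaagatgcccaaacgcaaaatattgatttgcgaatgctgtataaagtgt
Cyp2d26, chr15:82794196-82794495, minus strand: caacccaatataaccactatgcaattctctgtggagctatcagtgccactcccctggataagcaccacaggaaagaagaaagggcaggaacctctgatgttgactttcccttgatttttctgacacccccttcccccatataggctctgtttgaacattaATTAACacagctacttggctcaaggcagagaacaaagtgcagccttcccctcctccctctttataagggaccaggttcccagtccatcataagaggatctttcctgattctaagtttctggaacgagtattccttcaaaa
Sult1a1, chr7:126676369-126676668, minus strand: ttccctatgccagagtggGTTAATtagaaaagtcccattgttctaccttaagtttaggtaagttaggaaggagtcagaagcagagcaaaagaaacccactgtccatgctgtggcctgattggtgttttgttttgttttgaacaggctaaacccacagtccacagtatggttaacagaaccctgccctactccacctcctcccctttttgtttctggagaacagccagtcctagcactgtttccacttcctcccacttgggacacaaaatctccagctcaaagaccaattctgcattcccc
Sult1d1, chr5:87568957-87569256, minus strand: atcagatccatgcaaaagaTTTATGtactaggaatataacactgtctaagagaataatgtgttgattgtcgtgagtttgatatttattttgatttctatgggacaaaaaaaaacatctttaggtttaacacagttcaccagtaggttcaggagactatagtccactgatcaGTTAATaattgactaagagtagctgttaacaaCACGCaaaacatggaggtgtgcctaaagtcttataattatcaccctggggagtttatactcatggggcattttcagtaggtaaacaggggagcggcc
In Abcc2 the antioxidant core began 98 bases and AGGTCA 49 bases before the start. In Gstm5 the antioxidant core began 42 bases before the start and overlapped a reverse-strand GCGTG at 38 bases. Cyp2c66, which fell, held the antioxidant core on the reverse strand just past the start. GTTAAT or its reverse complement began 191 bases before the start of Cyp2c40, 90 of Cyp2d26, 232 of Sult1a1 and 79 of Sult1d1. No letters of these 6 motifs were found in the windows of Abcb1b and Cyp2s1.

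The genes that fell followed a common order among the polypoid mice. Untreated polypoid mouse 1 was the highest polypoid mouse in 20 of the 22, and 5-ASA polypoid tissue averaged below untreated polypoid tissue in 21 of the 22. Markers of mature colonocytes moved in the same way: 6 of 9 fell (Slc26a3, Car4, Aqp8, Ceacam20, Selenbp1, Slc26a2), with a median of -2.19, and their mean log2 value was 0.34 and 0.28 in 5-ASA polypoid, 2.57 and 1.21 in untreated polypoid, 3.77 and 3.21 in 5-ASA inflamed and 3.18 and 3.34 in untreated inflamed mice. Each of the 9 was well above background on at least 7 of the 8 polypoid arrays. Of 7 general epithelial markers 0 passed, with a median of -0.14 and means of 2.72 to 3.45 in polypoid and 2.88 to 3.35 in inflamed mice. Their means were 2.92 and 2.72 in 5-ASA polypoid and 3.18 and 3.45 in untreated polypoid mice. By arm their median tissue difference was 0.39 in untreated mice and -0.54 in 5-ASA mice, and none passed in either arm. Enteroendocrine markers fell in 4 of 6 (means 0.03 to 3.62 in polypoid and 4.05 to 4.72 in inflamed mice), smooth muscle markers fell in 4 of 7 (0.71 to 1.35 and 1.59 to 3.88), goblet markers in 1 of 6 (2.70 to 3.78 and 3.45 to 4.23), and neutrophil markers rose in 4 of 6 (2.15 to 3.32 and -0.08 to 0.44). None of the fibroblast, endothelial, macrophage and lymphocyte markers passed. Over all genes 1.97% fell and 3.97% rose. Mature colonocyte markers were not alone in the order of the polypoid mice (both 5-ASA mice lowest, untreated mouse 1 highest). Enteroendocrine means were 0.03 and 0.68 in 5-ASA polypoid and 3.62 and 1.12 in untreated polypoid mice. Goblet means were 2.70 and 3.20, then 3.78 and 3.44, and lymphocyte means -0.13 and -0.14, then 0.61 and 0.58. The other marker lists did not hold this order. The part of cell composition in the enzyme and pump results was not tested, and fewer cells of a type cannot be told apart from less RNA per cell in captured tissue.

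**Figure D4:**
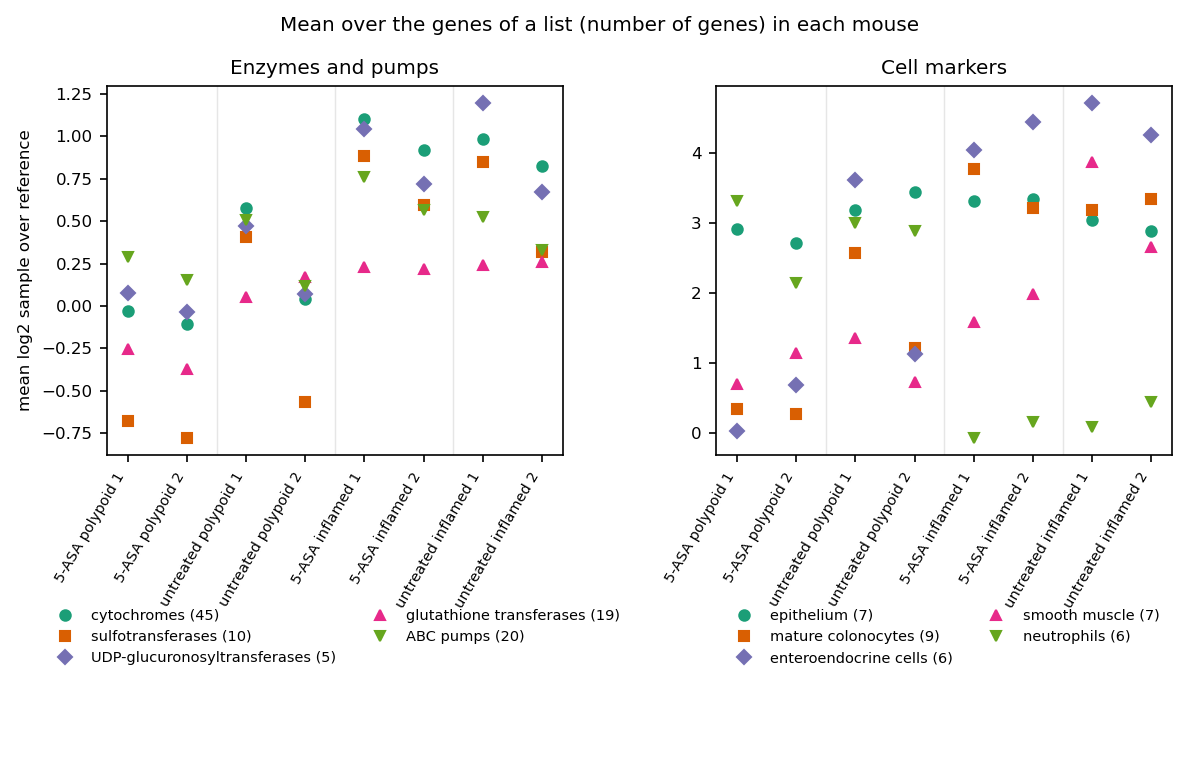
Mean log2 of sample over reference (vertical axes) in each of the 8 mice, for enzyme and pump families (left, number of genes in brackets) and for cell marker lists (right). Cytochromes, sulfotransferases, mature colonocyte markers and enteroendocrine markers share an order among the polypoid mice, lowest in both 5-ASA mice and highest in untreated mouse 1. The epithelial means lie between 2.72 and 3.45 and are, among the polypoid mice, also lowest in both 5-ASA mice.

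Genes around the pathway were read from lists. Of 21 receptors and regulators of these enzymes 2 fell: Ahrr, the repressor of the dioxin receptor (-1.28 ± 0.26 SE, adjusted p = 0.0434), and the vitamin D receptor Vdr (-0.77 ± 0.13 SE, adjusted p = 0.0269). The dioxin receptor Ahr, the pregnane receptor Nr1i2 and the antioxidant regulator Nfe2l2 differed by 0.37 ± 0.30 SE, -0.57 ± 0.29 SE and 0.13 ± 0.16 SE and did not pass. Of 15 genes for electron and cosubstrate supply 1 fell, Cth, which makes cysteine for glutathione (-1.47 ± 0.25 SE, adjusted p = 0.0283), and the P450 reductase Por differed by 0.23 ± 0.17 SE, adjusted p = 0.493. Other oxidising or conjugating enzymes fell in 6 of 28, none rose, and the 4 with the smallest p were the monoamine oxidases Maoa (-1.99 ± 0.22 SE) and Maob (-3.21 ± 0.38 SE), the retinal dehydrogenase Aldh1a1 (-2.45 ± 0.35 SE) and the carbonyl reductase Cbr3 (-2.07 ± 0.29 SE). Of 15 uptake carriers 2 fell, the prostaglandin carrier Slco2a1 (-1.86 ± 0.14 SE, adjusted p = 0.00489) and the peptide carrier Slc15a1 (-1.91 ± 0.28 SE, adjusted p = 0.0204), and 1 rose, the bile acid carrier Slc10a2 (2.65 ± 0.30 SE, adjusted p = 0.0114). The list medians were -0.37, -0.02, -0.61 and -0.46 in this order, beside -0.02 over all genes. Of all genes 1.97% fell and 3.97% rose.

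Scan sessions, read from the scan times in the file headers, were partly tied to tissue: session 1 held inflamed mice and session 2 polypoid mice, and only session 3 held both. Within session 3, which had 1 inflamed mouse, the polypoid mean lay on the same side for all 26 genes, with -4.38 for Cyp2c40, -3.07 for Sult1a1, -1.79 for Abcb4 and 1.69 for Abcc2. For the 21 genes without overlap between the tissues that side was fixed in advance, so it is no separate check on scan session. With session as a fixed block 1 residual degree of freedom was left, all 26 kept their sign, and none passed. Leaving out 1 mouse changed the number of genes that passed: it was 6 without 5-ASA polypoid mouse 1, 7 without 5-ASA polypoid mouse 2, 2 without 5-ASA inflamed mouse 1, 6 without 5-ASA inflamed mouse 2, 10 without untreated inflamed mouse 1 and 10 without untreated inflamed mouse 2. It was 34 without untreated polypoid mouse 1 and 19 without untreated polypoid mouse 2. The 2 that passed without 5-ASA inflamed mouse 1 were Abcc2 and Cyp2d26.

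Within the arms the tissue comparison rested on 2 polypoid and 2 inflamed mice. In 5-ASA mice 12 members passed, all of them among the 26: Abcc2 rose, and Cyp2c40, Cyp2c66, Cyp2d9, Cyp2d10, Cyp2d26, Cyp2s1, Cyp3a13, Cyp3a44, Ugt1a6b, Abcb1b and Abcb4 fell (3.06% of all genes passed, 2.04% higher and 1.02% lower). The differences in 5-ASA mice were -4.92 ± 0.90 SE, adjusted p = 0.0489 for Cyp2c40, -3.77 ± 0.63 SE, adjusted p = 0.0399 for Ugt1a6b, -2.80 ± 0.28 SE, adjusted p = 0.0162 for Abcb4 and 1.99 ± 0.25 SE, adjusted p = 0.0234 for Abcc2. In untreated mice none of the 101 genes passed (0.164% of all genes, 0.16% higher and 0.00469% lower), and 28 had an unadjusted p under 0.05 (12.6% of all genes). The smallest adjusted p was that of Cyp2d26 (-1.81 ± 0.25 SE, adjusted p = 0.0735). For Cyp2c40, Ugt1a6b, Abcb4 and Abcc2 the differences in untreated mice were -2.86 ± 0.90 SE, -2.29 ± 0.63 SE, -1.19 ± 0.28 SE and 1.84 ± 0.25 SE. The difference was larger in size in 5-ASA mice for 20 of the 22 genes that fell. Tested directly, as the 5-ASA effect in polypoid minus that in inflamed tissue, no member and none of the 21300 genes passed. With an unadjusted p under 0.05 there were 11 members (5.97% of all genes). The count of 12 in 5-ASA mice was 0 with any 1 of the 4 mice given 5-ASA left out, 7 without either untreated inflamed mouse and 28 without either untreated polypoid mouse. It was 24 with the replicate number as a block.

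The second comparison asked whether 5-ASA altered these genes. No member passed between the 4 mice given 5-ASA and the 4 untreated mice over both tissues in limma (0% of all genes passed), and the smallest adjusted p was 0.768. An unadjusted p under 0.05 was found for 3 members (6.38% of all genes): Gstk1, Cyp2f2 and Sult4a1. No member separated the 5-ASA from the untreated mice without overlap, which 1.73% of all genes did. The median difference over the 101 genes was -0.07, against -0.01 over all genes.

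Gstk1 had 2.31 and 2.32 in 5-ASA polypoid mice, 3.73 and 2.93 in untreated polypoid mice, 3.98 and 3.37 in 5-ASA inflamed mice and 3.96 and 4.19 in untreated inflamed mice. Both 5-ASA polypoid mice lay below both untreated polypoid mice, the inflamed mice overlapped, and the difference over both tissues was -0.71 ± 0.22 SE, adjusted p = 0.768. Cyp2f2, whose values stand above, had a fitted difference of -1.82 ± 0.59 SE, adjusted p = 0.768, in which the 5-ASA polypoid mice were not well above background. In polypoid tissue a bound on the group means gave a 5.33-fold lower value with 5-ASA (adjusted p = 0.611 for the fitted difference). The bound puts each array of the dim group at the lowest signal among probes well above background, or at the probe's own where higher. It takes no account of the spread between mice. Within session 2, which held untreated polypoid mouse 1, the fitted values differed by -3.78, and within session 3 by -1.10. In inflamed tissue Cyp2f2 differed by -1.21 ± 0.84 SE. Sult4a1, a brain sulfotransferase with no settled substrate, had -1.29 and -1.14 in 5-ASA polypoid mice, -0.70 and -0.89 in untreated polypoid mice, -2.13 and -1.84 in 5-ASA inflamed mice and -1.16 and -1.73 in untreated inflamed mice. Its difference was -0.48 ± 0.16 SE, adjusted p = 0.768, and within each tissue both 5-ASA mice lay below both untreated mice.

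In the other families the member with the smallest p did not pass either. Abcb1b differed by 0.48 ± 0.21 SE over both tissues, Abcg5 by 0.70 ± 0.51 SE, Nat2 by 0.45 ± 0.41 SE and Cyp1a1, mostly not well above background, by 0.15 ± 0.25 SE. For Abcc9, which forms potassium channels rather than a pump, the difference was -0.44 ± 0.24 SE. Cyp3a11 gave -0.16 ± 0.14 SE, Cyp4f14 -0.996 ± 0.46 SE, Gsta3 -0.83 ± 0.36 SE and Gstm2 -0.95 ± 0.42 SE. Ugt1a6b and Ugt2b37 gave -0.74 ± 0.44 SE and 0.13 ± 0.11 SE. The acetyltransferase Nat1 differed by -0.14 ± 0.13 SE, and the pumps Abcc2, Abcc3, Abcg2 and Abcb1a by 0.25 ± 0.18 SE, -0.27 ± 0.27 SE, 0.40 ± 0.44 SE and 0.69 ± 0.45 SE.

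By tissue, no member passed in polypoid tissue (smallest adjusted p = 0.589; 5 members and 7.76% of all genes at an unadjusted p under 0.05) or in inflamed tissue (smallest adjusted p = 0.975; 5 members and 4.38% of all genes), and 0% of all genes passed in each. In polypoid tissue the 5 were Abcb4, Cyp2d9, Cyp2f2, Gstk1 and Gstt2, each with both 5-ASA mice below both untreated mice, at -0.89 ± 0.28 SE for Abcb4, -0.87 ± 0.26 SE for Cyp2d9 and -0.71 ± 0.23 SE for Gstt2. In inflamed tissue the 5 were Abcb1a, Abcb1b, Abcb4, Cyp1a1 and Cyp3a44, each with both 5-ASA mice above both untreated mice. Cyp1a1 was tested only because the 5-ASA inflamed arrays detected it, so its place among the 5 is no result. In both tissues the genes were picked by p on these same mice, so the separation of 2 from 2 mice is no further result. The count of 5 among 101 members was below the share of all genes in polypoid tissue and close to it in inflamed tissue. The neighbouring Abcb genes had 3.75 and 3.32 in 5-ASA inflamed mice and 2.20 and 1.11 in untreated inflamed mice for Abcb1a, differing by 1.88 ± 0.64 SE. Abcb1b differed by 1.21 ± 0.30 SE and Abcb4 by 0.73 ± 0.28 SE. Within scan session 1 the 5-ASA mouse exceeded the untreated inflamed mouse by 1.55 for Abcb1a, 1.58 for Abcb1b and 0.70 for Abcb4.

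Abcb4 and Cyp2d9 thus had opposite signs in the tissues, and the test of that difference gave -1.62 ± 0.40 SE, adjusted p = 0.797 for Abcb4 and -1.49 ± 0.37 SE, adjusted p = 0.797 for Cyp2d9. Of the 101 differences 31 were positive in polypoid tissue and 52 in inflamed tissue. Of all 21300 genes 51.9% were positive in polypoid and 47.2% in inflamed tissue. Within scan session 2, which held polypoid mouse 1 of each arm, the 5-ASA mouse lay below by -3.39 for Cyp2c40, -3.47 for Sult1a1 and -2.75 for Ugt1a6b. Within session 3 the same differences were -0.78, -0.05 and -0.22. The larger differences were those that involved untreated polypoid mouse 1.

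**Figure D5:**
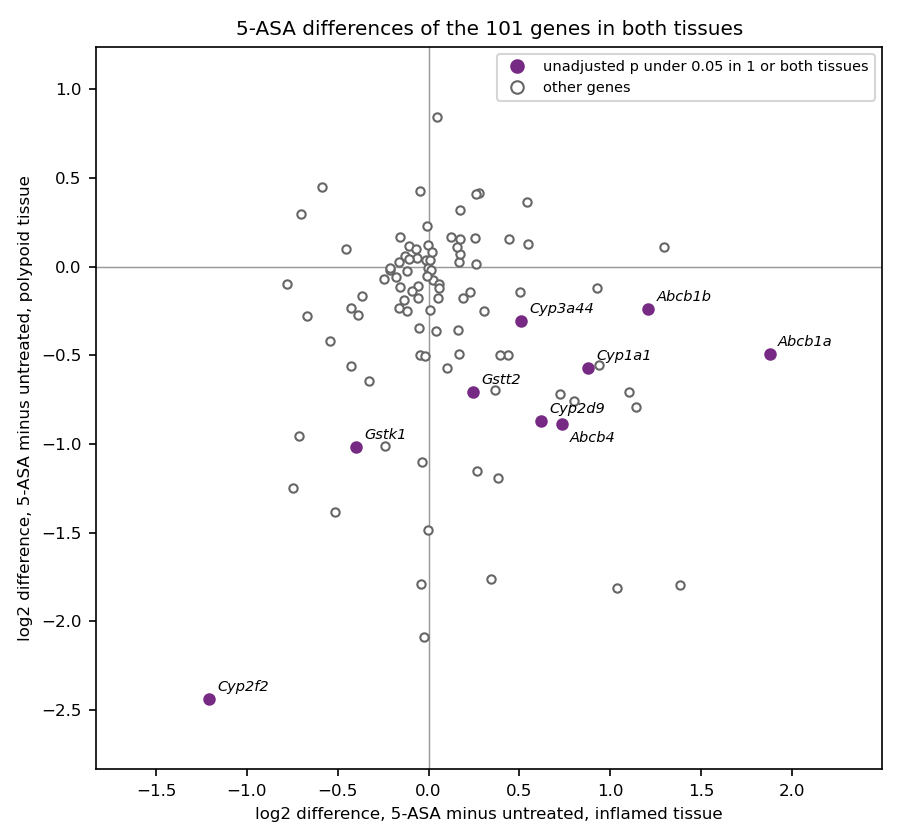
Log2 difference, 5-ASA minus untreated, of the 101 genes in inflamed tissue (horizontal axis) and polypoid tissue (vertical axis), each from 2 mice against 2. Named filled points had an unadjusted p under 0.05 in 1 or both tissues and none passed after adjustment; Abcb1a, Abcb1b and Abcb4 lie to the right, and Cyp2f2 lies lowest.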

How the data were processed

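The arrays measured gene expression in laser-captured colon of 8 mice, 2 per group. Per the file headers, the deposited scanner files hold intensity values (spot mean and local background, Agilent Feature Extraction 9.1.1.1), processed intensity signals and a log10 ratio of red over green, the last used only to read the scale of the authors' table. The values of the authors' deposited table are log2 ratios to the reference; its background correction and normalization are not given in the sources used here. From the intensities, background was corrected by normexp (offset 50) and dyes were normalised by loess in limma 3.58.1 (R 4.3.3). Swapped arrays were turned, and a fit of mouse plus dye gave 1 value per mouse. A gene was represented by its brightest detected probe, with names updated through RefSeq (GRCm38.p6, used for names, gene order and promoters). The 4 group means were fitted in limma with a shared spread (4 residual and 2.14 prior degrees of freedom), and the Benjamini-Hochberg adjustment ran over 21300 genes in each of 7 comparisons; a gene passed at an adjusted p under 0.05. The fit was checked on simulated data. P-values measure the spread between mice, and 2 mice per group limit the precision.

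The members, lists, promoter choice and tests were chosen with earlier results of these data known. The rule for named genes took every member that passed, the members with the smallest p of each family for tissue and for 5-ASA, Nat1, Nat2 and 5 pumps, and up to 4 genes that passed per pathway list. Alternatives were processed signals, the authors' table, median centring, Cy3 arrays alone, other detection filters, probe means, scan session or replicate number as a block, and each mouse left out. The labels do not tie replicate numbers to a litter or day.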

Additional observations from a re-analysis of the deposited data

How the results depend on the processing

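All 26 genes that passed between polypoid and inflamed tissue kept that sign under every alternative that gave a value for them. The number of members that passed was 18 to 32 under the other processing choices and the replicate block, 0 with scan session as a fixed block, which leaves 1 residual degree of freedom, and 2 to 34 with 1 mouse left out. In 5-ASA mice alone (12 members) it was 23 with processed signals, 24 with the replicate block, 0 with scan session as a fixed block and 0 to 28 with 1 mouse left out. In untreated mice alone (0 members) it was 2 with processed signals and 1 with Cy3 arrays alone. The counts for 5-ASA and for the difference of its effect between tissues were 0 under every alternative run. The labels give a replicate number and nothing that it stands for, but it follows scan session (replicates 1 in sessions 1 and 2, replicates 2 in sessions 3 and 4), so the block is partly one of scan session. Deviations from the group means of same-numbered mice correlated at 0.034 to 0.363 over the 6 pairs of groups, and the replicate block gave 32 members for polypoid over inflamed tissue in both arms. Abcc5 did not pass with processed signals, the authors' table or median centring, nor did Cyp2c29, Cyp2c55, Gstm1, Gstm2 and Sult1d1 with the authors' table, Cyp2c29, Cyp2c55, Cyp4f14, Gstm5 and Sult1d1 with no detection filter, or Cyp2c55 with session as a random block, and Abcb1a and Abcg2 passed with processed signals. Signs near 0 turned for Nat1 in polypoid over inflamed tissue (-0.13 with session as a block, and -0.10 to 0.15 with 1 mouse left out) and for 5-ASA over untreated in Abcc3 (0.066 with session as a block), in Cyp1a1 (-0.086 to 0.39 with 1 mouse left out, lowest without untreated polypoid mouse 2) and in Abcg2 (-0.084 to 0.89, lowest without the same mouse). The causes of these shifts were not tested, apart from the fewer mice or degrees of freedom that the alternatives leave.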

Other observations

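Abcb genes are grouped here by known location in the cell, a grouping made after the values were seen, and values are polypoid over inflamed tissue. The surface transporters Abcb1a, Abcb1b, Abcb4 and Abcb11 (the bile salt export pump) had log2 differences of -1.82 ± 0.45 SE, -1.72 ± 0.21 SE, -1.996 ± 0.20 SE and -0.90 ± 0.32 SE. The mitochondrial Abcb8 and the lysosomal Abcb9 had 0.43 ± 0.12 SE and 0.83 ± 0.23 SE. Mitochondrial Abcb10 had -0.13 ± 0.14 SE (0.05 by its second probe), and Abcb6, of several membranes, had -0.36 ± 0.21 SE. Of the 8 genes given here only Abcb1b and Abcb4 passed.

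The Cyp2j genes, epoxygenases that lie side by side, had differences on both sides of 0. Cyp2j6, Cyp2j11 and Cyp2j13 differed by 0.66 ± 0.20 SE, 0.26 ± 0.14 SE and 0.27 ± 0.17 SE, Cyp2j9 by -0.61 ± 0.26 SE, and none passed. The second detected probes of Cyp2j6, Cyp2j11 and Cyp2j13 gave 0.04, -0.04 and -0.15. The sign thus depended on the probe for Cyp2j11 and Cyp2j13.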
